A study of Rattus norvegicus with 12 samples.

Results

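The genes described here build the intercalated disc, the junction at which heart muscle cells are joined end to end. Of 10 listed genes, 7 had a probe set that the probe table pairs with a single gene symbol: the gap-junction genes Gja1 and Gja5, the cadherin gene Cdh2, the desmosomal genes Dsc2, Jup and Pkp2, and the scaffold gene Tjp1. Each had 1 such probe set, and all 7 passed the filter on low values. Gjc1, Dsp and Dsg2 are not analysed here. Gene expression was measured on Affymetrix rat arrays in cultured ventricular cardiomyocytes of newborn Wistar rats, and 10025 genes were tested. The 12 arrays formed 4 groups of 3: cultures transduced by adenovirus with the mef2Cγ+ form (here γ+), with the mef2Cγ- form (here γ-) or with the mef2Cγ+23/24 form (here 23/24), and cultures left untreated (control). All cultures were plated for 44 h on collagen in medium with 10% horse serum and 5% fetal bovine serum, then kept for 24 h without serum. MEF2C is a transcription factor of muscle genes, and the γ segment is an alternatively spliced part of it known as a repressor domain. The labels name the 23/24 form without defining it. There was no empty-virus group, so a difference from control cannot be told apart from an effect of adenovirus. The labels call the arrays of a group biological replicates without naming separate cell isolations, and p-values measure the spread between these samples, which may be technical. Mef2c itself is not analysed here.

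At the intercalated disc, adherens junctions and desmosomes hold neighbouring cells together and gap junctions let current and small molecules pass between them. Cadherins bind across the gap between cells, catenins and plakophilins tie them to actin or to desmin filaments, and connexins form the gap-junction channels. Inherited loss of desmosomal proteins is known to cause arrhythmogenic cardiomyopathy, and fewer or misplaced connexins are a known feature of the failing heart.

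Exactly equal values occurred in all 21 pairs of arrays within the γ+ group, within the γ- group, or within the 23/24 and control arrays together (27 to 111 per pair) and in 0 of the other 45 pairs. This pattern fits 3 normalization runs, and a difference between the γ+ or γ- group and any other group cannot be told apart from a difference between runs. On this reading the 23/24 group against control lies within 1 run. The labels name no such runs. Replicate 2 of the γ+ group stood apart, with a standard deviation of 0.24 log2 in its differences from both other γ+ arrays, against 0.12 between those. The counts of called junction genes were the same without it. Of all genes, 38.2% were then called lower and 28.4% higher in the γ+ group against control, in place of 38.7% and 26.2%. The moderated F test over the 4 groups then called 75.4% of all genes, in place of 70.3%. Some other counts that changed without it are given where they occur.

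RefSeq promoter windows of the GRCr8 assembly (250 bases before to 50 after a transcript start) were found for 5 of the 7 genes, all but Cdh2 and Pkp2. The 250 bases before the start are shown for the connexin genes Gja1 and Gja5, the genes with the largest change in the γ+ group. Gja1 lies on the plus strand at chr20:36302314-36302563, its last 74 bases inside the gene as RefSeq annotates it, and capitals mark the letters TGANTCA, a motif of AP-1 factors. Gja5 lies on the plus strand at chr2:187290977-187291226, directly before the annotated gene, and capitals mark GGGCGG, a motif of Sp1 factors.
Gja1: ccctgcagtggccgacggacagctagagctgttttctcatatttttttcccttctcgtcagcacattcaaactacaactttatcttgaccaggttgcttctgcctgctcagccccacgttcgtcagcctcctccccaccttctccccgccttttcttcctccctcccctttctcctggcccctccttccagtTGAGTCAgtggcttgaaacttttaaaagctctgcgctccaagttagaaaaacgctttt
Gja5: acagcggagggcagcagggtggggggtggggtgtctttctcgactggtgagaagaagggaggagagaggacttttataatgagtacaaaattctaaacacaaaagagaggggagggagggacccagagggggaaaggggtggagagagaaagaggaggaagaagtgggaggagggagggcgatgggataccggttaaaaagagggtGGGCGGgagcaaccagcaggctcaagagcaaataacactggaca

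The MEF2 site was searched on both strands as CTA and TAG separated by any 4 bases, which reads the same on both strands, and as the MEF2 consensus, whose matches can overlap the first. The first form was in 0 of the 5 windows of these genes, against 3.83% of the 27457 windows of all genes. The MEF2 consensus was in 1 of the 5, Tjp1, as TTAATATTAG starting at position -126 from the window's start site, against 3.37% of all windows. That Tjp1 window lies 179658 bases inside the annotated gene. TGANTCA was in the window of Gja1, against 7.33% of all windows, and GGGCGG or its complement was in those of Gja5, Dsc2 and Jup, against 34.9%. The start site of the Dsc2 window lies 125 bases inside the annotated gene. That of Jup lies 452 bases inside, so the whole Jup window is within the gene. TGANTCA and GGGCGG were chosen after the changes were known. These matches are descriptions of letters in the windows.

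All 7 junction genes were lower in the γ+ group than in control, by 0.40 to 1.27 on the log2 scale, and in each the 3 γ+ arrays lay below all 9 other arrays. Of all genes tested, 38.7% were called lower in that comparison (limma, adjusted p under 0.05) and 40% had γ+ arrays that all lay below the control arrays. This is a looser condition than lying below all 9 others, for which no share over all genes was counted. The median change of the 7 genes was -0.70 log2, against -0.07 over all 10025 genes. None of the 7 was called in the γ- or the 23/24 group against control. In these bulk cultures, fewer cells of a type and less RNA per cell cannot be told apart.

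**Figure D1:**
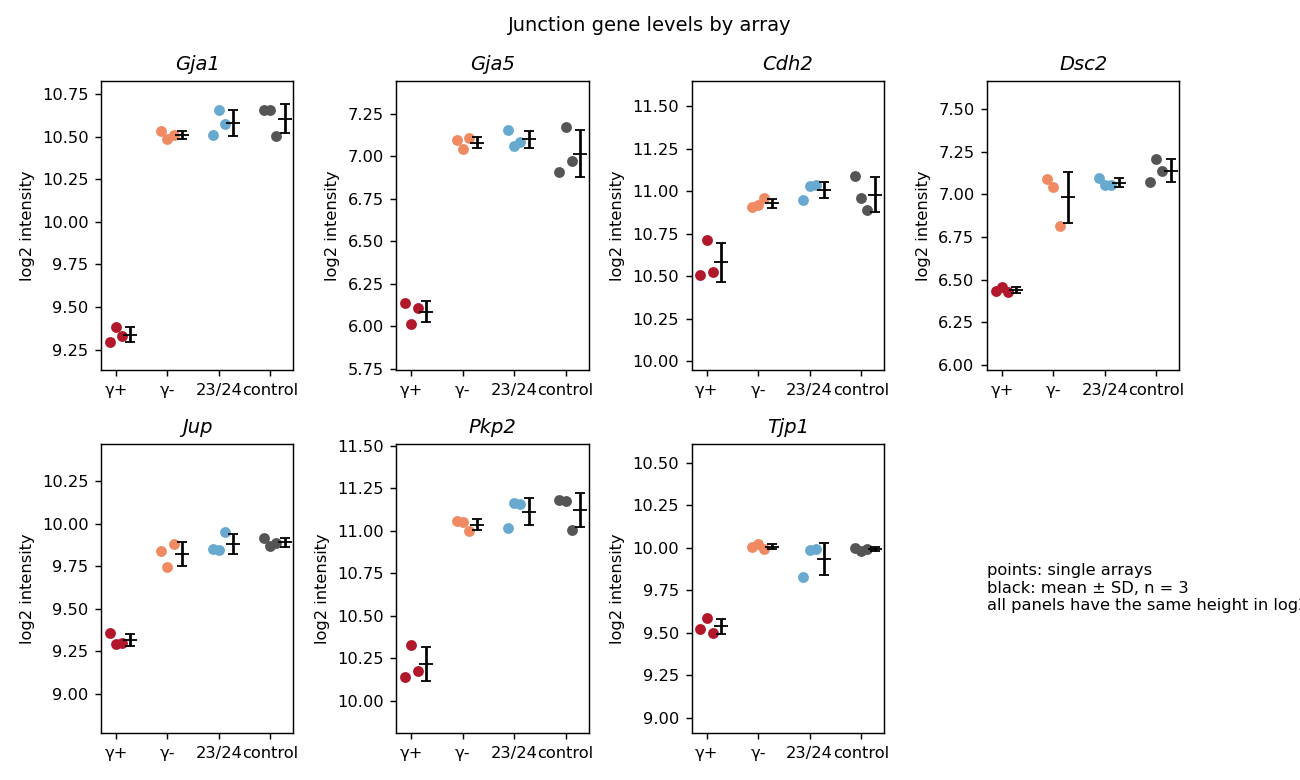
Log2 intensity (vertical axes, all of the same height in log2) of the 7 junction genes on each of the 12 arrays by group, with the mean ± SD (n = 3) in black. In each gene the 3 γ+ points lie below the 9 others, and the γ-, 23/24 and control points lie close together.

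Gja1 encodes the main connexin of working ventricular muscle, and it changed most. Its log2 level was 9.30, 9.38 and 9.33 in the γ+ arrays, 10.54, 10.49 and 10.51 in the γ- arrays, 10.51, 10.66 and 10.58 in the 23/24 arrays, and 10.66, 10.66 and 10.51 in the control arrays. The γ+ arrays sat together more than 1 log2 under the rest, and the other 3 groups shared 1 narrow range. The change in the γ+ group against control was -1.27 ± 0.06 (SE, n = 3 per group), which is a level 2.41-fold lower, with a limma adjusted p of 7.6e-12. Of all genes, 3.19% had a lower log2 difference.

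Gja5 encodes a connexin known from the atria, the conduction system and arterial endothelium. On the log2 scale its level was 6.14, 6.01 and 6.11 in the γ+ arrays, 7.09, 7.04 and 7.10 in the γ- arrays, 7.15, 7.06 and 7.08 in the 23/24 arrays, and 6.91, 7.17 and 6.97 in the control arrays. The control arrays spread most widely, and the γ- and 23/24 arrays fell inside their range. Against control the γ+ group differed by -0.93 ± 0.07 (SE, n = 3 per group), with a limma adjusted p of 1.3e-08.

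Cdh2 encodes N-cadherin, the cadherin of the cardiac adherens junction. The log2 level was 10.51, 10.71 and 10.53 in the γ+ arrays, 10.91, 10.92 and 10.96 in the γ- arrays, 10.95, 11.03 and 11.04 in the 23/24 arrays, and 11.09, 10.96 and 10.89 in the control arrays. Replicate 2 of the γ+ group was the highest of its group and still below every array of the others. The γ+ change against control was the smallest of the 7, -0.40 ± 0.06 (SE, n = 3 per group, limma adjusted p = 3.0e-05), and it was -0.46 without that array. Rescaling the arrays (median centring, quantile or cyclic loess normalization) brought it to between -0.31 and -0.26, still called lower.

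Among the desmosomal genes, Pkp2, whose product plakophilin 2 anchors desmosomal cadherins to desmoplakin, changed most. Its log2 level was 10.141, 10.327 and 10.172 in the γ+ arrays, 11.057, 11.051 and 10.996 in the γ- arrays, 11.018, 11.160 and 11.157 in the 23/24 arrays, and 11.180, 11.172 and 11.003 in the control arrays. The γ+ arrays stood well below the rest, and the other 3 groups overlapped. The change in the γ+ group against control was -0.91 ± 0.06 (SE, n = 3 per group, limma adjusted p = 2.2e-09).

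Dsc2 encodes desmocollin 2, a desmosomal cadherin. Dsc2 had a log2 level of 6.43, 6.46 and 6.43 in the γ+ arrays, 7.09, 7.05 and 6.81 in the γ- arrays, 7.10, 7.05 and 7.06 in the 23/24 arrays, and 7.07, 7.21 and 7.14 in the control arrays. Replicates 2 and 3 of the γ- group lay under all 23/24 and control arrays, replicate 2 only just (7.046, against a lowest 23/24 value of 7.053), and replicate 1 lay among them. Against control the γ+ group differed by -0.70 ± 0.07 (SE, n = 3 per group, limma adjusted p = 4.3e-07).

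Jup encodes plakoglobin, a catenin found in both desmosomes and adherens junctions. Its log2 level was 9.36, 9.29 and 9.30 in the γ+ arrays, 9.84, 9.75 and 9.88 in the γ- arrays, 9.85, 9.84 and 9.95 in the 23/24 arrays, and 9.92, 9.87 and 9.89 in the control arrays. The γ+ arrays were close together and apart from the rest. Jup differed by -0.57 ± 0.05 (SE, n = 3 per group, limma adjusted p = 6.9e-08) between the γ+ group and control.

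Tjp1 encodes the scaffold protein that binds the tail of connexins at the gap-junction edge and links cadherin complexes to actin. Tjp1 had a log2 level of 9.52, 9.59 and 9.50 in the γ+ arrays, 10.00, 10.02 and 9.99 in the γ- arrays, 9.83, 9.98 and 9.99 in the 23/24 arrays, and 10.00, 9.98 and 9.99 in the control arrays. Replicate 1 of the 23/24 group was lower than the other arrays outside the γ+ group. Tjp1 differed by -0.45 ± 0.05 (SE, n = 3 per group, limma adjusted p = 1.2e-06) between the γ+ group and control.

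The size of the change varied among the junction genes. The 95% interval of the γ+ change ran from -1.39 to -1.15 log2 for Gja1, from -1.09 to -0.77 for Gja5 and from -1.04 to -0.77 for Pkp2. It ran from -0.86 to -0.54 for Dsc2, from -0.69 to -0.46 for Jup, from -0.57 to -0.34 for Tjp1 and from -0.53 to -0.27 for Cdh2. The interval of Gja1 thus overlapped none of the other 6, whereas those of Jup, Tjp1 and Cdh2 overlapped. Within each array, which leaves out any scaling common to the array, the log2 signal of Gja1 minus that of Cdh2 was -1.24 ± 0.07 in the γ+ group, -0.42 ± 0.04 in the γ- group, -0.43 ± 0.05 in the 23/24 group and -0.37 ± 0.06 in control (SD, n = 3 each). This pair was chosen for having the largest and the smallest change, so the difference is a description only.

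**Figure D2:**
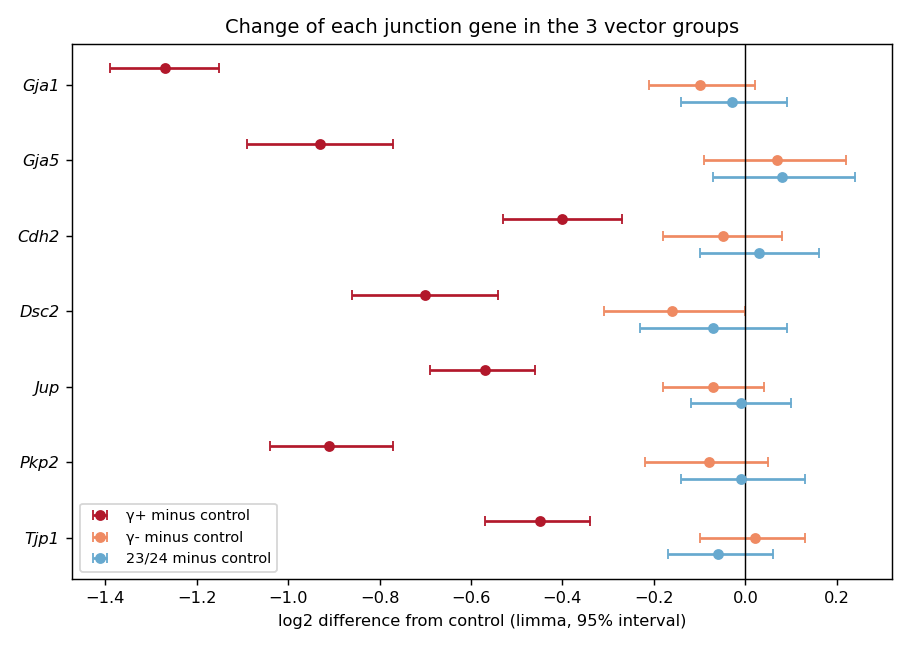
Log2 difference from control (horizontal axis) of each junction gene in the γ+, γ- and 23/24 groups, with 95% intervals from the limma fit over 12 arrays. The γ+ points lie between -1.27 and -0.40 with no interval reaching 0, and the γ- and 23/24 points lie between -0.16 and 0.08.

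In the γ- group against control, 0 of the 7 genes were called by limma, and 0 had an unadjusted p under 0.05, where 6.94% of all genes were called and 22.8% had such a p. The share of all genes called was 16.6% without γ+ replicate 2 and 2.66% to 3.42% without any 1 of the γ- or control arrays, and 0 of the 7 were called in each case. The differences ran from -0.16 for Dsc2 to 0.07 for Gja5. That of Dsc2, with a 95% interval of -0.31 to 0.00 log2 and a limma adjusted p of 0.224, was the farthest from 0. For Gja1 the interval was -0.21 to 0.02 and for Cdh2 -0.18 to 0.08, so a fall of Gja1 as large as in the γ+ group lay outside it. These intervals do not show that the levels were equal.

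In the 23/24 group against control, 0 of the 7 genes were called by limma and 0 had an unadjusted p under 0.05, where 0% of all genes were called and 8.97% had such a p. Without γ+ replicate 2, 0.579% of all genes were called and again 0 of the 7. The differences ran from -0.07 for Dsc2 to 0.08 for Gja5. For Gja1 the difference was -0.03 with a 95% interval of -0.14 to 0.09, for Pkp2 -0.01 with an interval of -0.14 to 0.13, and for Tjp1 -0.06 with an interval of -0.17 to 0.06. The γ- and 23/24 cultures had received adenovirus, as the γ+ cultures had, and the control cultures had not. An effect of adenovirus was not tested.

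Tested directly, all 7 genes were lower in the γ+ group than in the γ- group (limma, 37.5% of all genes lower), and all 7 were lower than in the 23/24 group (37.9% of all genes lower). These comparisons share the γ+ arrays with each other and with the comparison against control. Gja1 differed by -1.17 ± 0.06 log2 from the γ- group and by -1.25 ± 0.06 from the 23/24 group (SE, n = 3 per group), with limma adjusted p of 2.1e-11 and 1.0e-11. Gja5 differed by -0.99 ± 0.07 and -1.01 ± 0.07 in the same order, and Pkp2 by -0.82 ± 0.06 and -0.90 ± 0.06. The other 4 differed by -0.54 to -0.35 from the γ- group and by -0.63 to -0.40 from the 23/24 group. Rescaling moved the change of Cdh2 against the γ- group, -0.35, to between -0.28 and -0.21, and that of Tjp1 against the 23/24 group, -0.40, to between -0.34 and -0.26, and both were still called. Between the γ- and 23/24 groups 0 of the 7 were called by limma and 0 had an unadjusted p under 0.05 (8.1% of all genes called, 24.5% with such a p), with differences of -0.09 to 0.07. Without γ+ replicate 2 the share of all genes called was 18.3%, without any 1 of the γ- or 23/24 arrays it was 2.62% to 5.28%, and 0 of the 7 were called in each case. With array weights Gja1 (-0.11, adjusted p = 0.0447) and Pkp2 (-0.11, adjusted p = 0.04995) were called lower in that comparison, where 25.2% of all genes were called. In the moderated F test over the 4 groups all 7 were called, where 70.3% of all genes were.

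For the 2 genes with the largest γ+ change, the genes with the most similar levels over the 12 arrays were looked up. For Gja1 these were Mxra8, with a Pearson correlation of 0.998, Scn3b with 0.997 and Col4a1 with 0.997. Mxra8 had a mean log2 level of 8.47 in the γ+ group, 10.00 in the γ- group, 10.09 in the 23/24 group and 10.17 in control. For Gja5 they were Acss2 (0.992), G0s2 (0.991) and Alas1 (0.991), and G0s2 had a mean of 5.58 in the γ+ group, 7.28 in the γ- group, 7.37 in the 23/24 group and 7.22 in control. All 6 were low in the γ+ arrays, and the pattern of equal values described above applies to these arrays too. Among the 7 junction genes themselves the correlations over the 12 arrays ran from 0.87 to 0.99, and each carries the same split between 3 γ+ arrays and 9 others.

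Around the members, the partners that tie cadherins to actin were mostly lower in the γ+ group: of 16 measured genes 14 were called lower and 2 higher against control by limma, with a median of -0.60 log2, where 38.7% of all genes were lower and 26.2% higher. Ctnna1, the alpha-catenin that links cadherin complexes to actin, changed by -1.34 ± 0.06 (SE, n = 3 per group, limma adjusted p = 1.5e-11), Enah, an actin-elongating protein, by -1.55 ± 0.06, Ablim1, an actin-binding LIM protein, by -1.04 ± 0.06 and Tln1, talin, by -0.86 ± 0.06. The 2 higher genes were Ctnnb1, beta-catenin, which binds the cadherin tail and also carries Wnt signals, with a mean log2 level of 10.13 in the γ+ group and 9.65 in control (0.48 ± 0.06), and Ctnnal1, an alpha-catenin relative, with 7.61 in the γ+ group and 6.96 in control (0.65 ± 0.07). Plakoglobin and beta-catenin, close relatives that can both bind cadherins, thus differed in the direction of their change. Median centring left 12 genes lower, losing Afdn and Ctnna2. Ctnna2 (-0.32 ± 0.11) was also not called with quantile or cyclic loess normalization (limma adjusted p of 0.104 in both). Nor was it called without control replicate 1, control replicate 3 or γ+ replicate 3. The mean of Ctnna2 in the γ+ group, 4.57, lay under the filter value of 4.78, so it passed the filter only through the other groups.

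Muscle scaffold proteins of the disc and the neighbouring Z-disc were lower: 13 of 14 measured genes fell in the γ+ group against control by limma, with a median of -1.08. Of all genes tested, 38.7% were lower there. Csrp3 (-2.99 ± 0.04), the muscle LIM protein, and Xirp2 (-3.54 ± 0.06), an actin-binding protein of the disc, changed most. Des, the desmin filament that desmosomes anchor, had a mean log2 level of 11.13 in the γ+ group and 12.61 in control (-1.48 ± 0.05), and Ldb3, a Z-disc PDZ-LIM protein, had 8.11 in the γ+ group and 9.72 in control (-1.61 ± 0.07). Popdc3, a Popeye-family gene, was not called (0.10 ± 0.10, limma adjusted p = 0.433), though without γ+ replicate 2 it was called higher (0.25, limma adjusted p = 0.004).

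Channels of the disc and the proteins that place them moved in both directions, with 7 of 12 genes lower and 3 higher in the γ+ group against control by limma (median -0.20). Of all genes tested, 38.7% were lower and 26.2% higher, and the 3 of 12 higher lie near that share. Lower were Cav3, the muscle caveolin (-1.36 ± 0.07), Actn2, the Z-disc alpha-actinin (-1.26 ± 0.05), Sorbs2, an actin-linked adaptor (-1.16 ± 0.04), and Ank3, the ankyrin that holds sodium channels at the disc (-0.78 ± 0.07). Higher were Mapre1, a protein of growing microtubule ends known to help deliver connexins to the disc (0.41 ± 0.06), Ank2, another ankyrin (0.30 ± 0.06), and Fgf13, a sodium channel modulator (0.30 ± 0.09). Under median centring 5 were lower and 4 higher, with Cxadr and Dlg1 no longer called, where 30.3% of all genes were lower and 31.8% higher.

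Among the other gap-junction, pannexin and tight-junction genes, the counts in both directions lay near those of all genes. Of 30 listed genes 12 passed the filter on low values, and by limma 5 were lower and 3 higher in the γ+ group against control, with a median of -0.02, where 38.7% of all genes were lower and 26.2% higher. Jam3, a junctional adhesion molecule, rose to a mean log2 level of 9.09 in the γ+ group, against 7.89 in control (1.20 ± 0.10, SE, n = 3 per group, limma adjusted p = 2.9e-08). Gja3, a connexin gene known from the lens, had a mean of 7.18 in the γ+ group and 6.67 in control (0.51 ± 0.09), and the pannexin Panx1 had 6.10 in the γ+ group and 5.75 in control (0.35 ± 0.09). Lower were Cgnl1, a cingulin relative, with a mean of 6.75 in the γ+ group and 7.74 in control, and Cldn1, a claudin (-0.61 ± 0.10). Of the 6 connexin genes that passed the filter, Gja1, Gja5 and Gja4 (-0.42 ± 0.13, limma adjusted p = 0.00796) were lower in the γ+ group against control. Gja3 was higher, and these calls held under the 3 other scalings, while Gjb5 (-0.09 ± 0.11) and Gjd3 (0.05 ± 0.13) were not called. Against the γ- group Gja4 was not called (-0.21 ± 0.13, limma adjusted p = 0.169), though it was called lower without γ+ replicate 3 (-0.32). Against the 23/24 group Gja4 was called lower (-0.39 ± 0.13), but not with median centring or without γ+ replicate 1. Under each of the 3 other scalings the median of this list turned positive (0.07 to 0.08), with 5 genes higher and 4 or 5 lower.

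Of 25 other cadherin and desmosomal genes 9 passed the filter, and by limma 5 were lower and 1 was higher in the γ+ group against control (median -0.51). In that comparison 38.7% of all genes were lower and 26.2% higher. Pkp1, a plakophilin, had a mean log2 level of 5.36 in the γ+ group and 7.24 in control (-1.88 ± 0.09, SE, n = 3 per group), and Cdh13, a cadherin without a transmembrane part, had 8.39 in the γ+ group and 9.64 in control (-1.25 ± 0.07). Ppl, periplakin, changed by -0.58 ± 0.09 and Cdh20 by -0.62 ± 0.11, and the mean of Cdh20 in the γ+ group, 4.46, lay under the filter value of 4.78. Perp, a desmosome-associated membrane protein, rose by 0.23 ± 0.08, and was not called without control replicate 3 (0.17, limma adjusted p = 0.0753). Cdh6 was not called (0.16 ± 0.10). It was called higher under each of the 3 other scalings (0.25 to 0.27, limma adjusted p of 0.0337 to 0.0433), where 31.2% to 31.8% of all genes were higher. It was also called higher without control replicate 3 (0.27, limma adjusted p = 0.032). In the γ- group against control, 3 of the 63 tested genes of these wider lists were called by limma, where 6.94% of all genes were: Clip1, a microtubule-end protein (0.46 ± 0.10), Pkp1 (-0.34 ± 0.09) and Ppl (-0.34 ± 0.09). Under rescaling Pkp1 was at -0.32 (adjusted p of 0.0513 to 0.0807, not called under any of the 3 other scalings) and Ppl at -0.33 with median centring and -0.32 with quantile normalization (adjusted p of 0.0657 and 0.0525, not called). Without γ+ replicate 2, 10 of the 63 were called, adding Fermt2, Itgb1, Csrp3, Des, Pdlim1, Cav3 and Mapre1 with differences of -0.17 to 0.15, where 16.6% of all genes were called. Without any 1 of the γ- or control arrays 0 or 1 of the 63 were called, and without 23/24 replicate 2 it was 1.

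**Figure D3:**
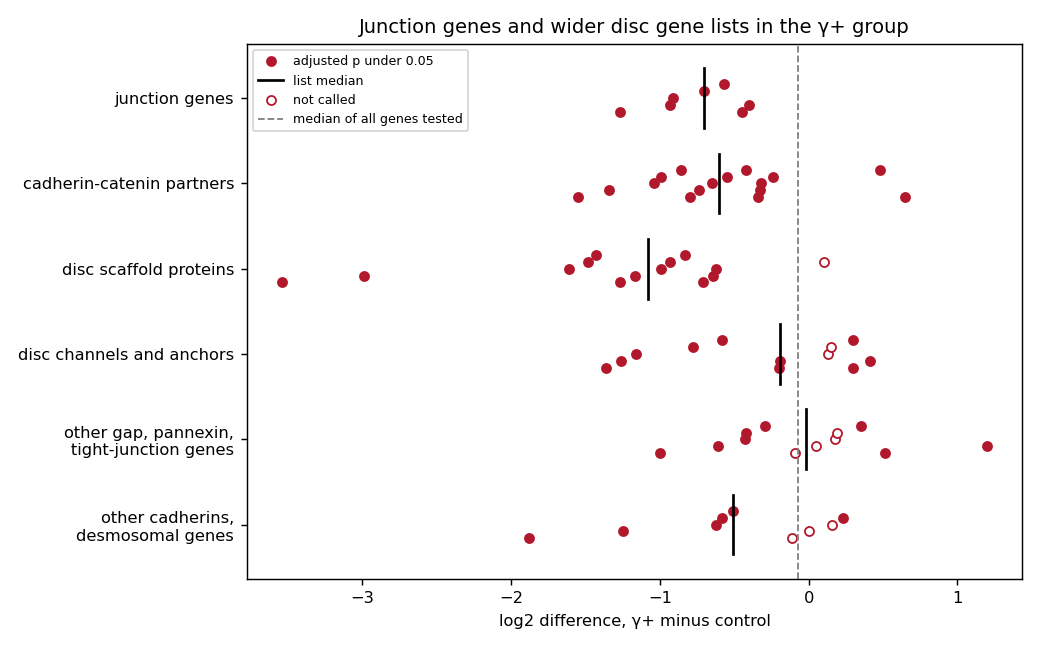
Log2 difference of the γ+ group from control (horizontal axis) for the junction genes and 5 wider lists, with 1 point per gene, filled where the limma adjusted p was under 0.05. Black bars mark list medians, from -1.08 for the scaffold proteins to -0.02 for the other gap-junction, pannexin and tight-junction genes, and the dashed line the median of all genes, -0.07.

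Markers of the cell types such cultures hold moved with the junction genes. All 12 cardiomyocyte markers, among them Myh6, Tnnt2, Ryr2 and Myl2, were above the filter, and their mean log2 level was 10.44 to 10.51 in the γ+ arrays, 11.61 to 11.64 in the γ- arrays, 11.56 to 11.63 in the 23/24 arrays and 11.57 to 11.61 in the control arrays. Of these 12 markers 11 were lower in the γ+ group against control by limma, where 38.7% of all genes were. That share stands beside each marker count below that uses all arrays without rescaling. Of 11 fibroblast markers 10 were lower and 1, Fbln1, was higher, with a mean level of 7.72 to 7.88 in the γ+ arrays, 8.90 to 8.95 in the γ- arrays, 8.97 to 9.07 in the 23/24 arrays and 9.04 to 9.06 in the control arrays. All 9 endothelial markers were lower, with a mean level of 5.96 to 6.10 in the γ+ arrays and 6.74 to 6.79 in the control arrays. So were all 7 smooth muscle and pericyte markers, with 8.51 to 8.54 in the γ+ arrays and 9.60 to 9.64 in the control arrays, and all 4 epicardial and mesothelial markers, with 6.12 to 6.30 in the γ+ arrays and 7.34 to 7.42 in the control arrays. Of the 9 macrophage markers 5 passed the filter and 3 of them were lower, and Ptprc, Aif1, Cd163 and C1qa lay under it. Of 3 Schwann and neuronal markers 2 were lower. Without γ+ replicate 2, Tbx18 among the epicardial markers was not called (-0.11, limma adjusted p = 0.176), and Sox10 was called lower (-0.26, limma adjusted p = 0.0303), which made 3 of the 3 Schwann and neuronal markers. Tbx18 was also not called with median centring (-0.11), with quantile normalization (-0.16) or without control replicate 1 (-0.22) or 3 (-0.16), against -0.20 with all arrays. Of the 5 macrophage markers 1 was lower with median centring (30.3% of all genes lower) and 2 with quantile or cyclic loess normalization (33.9% and 34.4%). Without control replicate 2 it was 1 (35.9%). Gja1, Cdh2 and Tjp1 are known to be expressed in fibroblasts and smooth muscle as well as in cardiomyocytes, and Gja5 in endothelium. The part of these cell types in the junction gene changes was not tested.

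**Figure D4:**
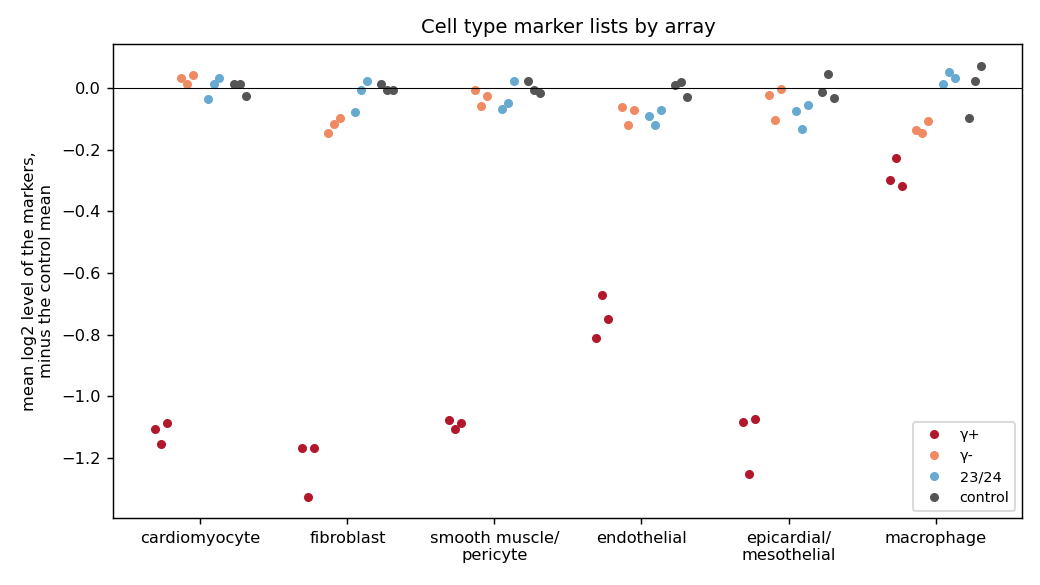
Mean log2 level of 6 cell type marker lists on each array, minus the mean of the control arrays (vertical axis), by group. All γ+ points lie below those of the other groups in every list shown, and the cardiomyocyte, fibroblast, smooth muscle and epicardial lists lie more than 1 log2 below control there.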

How the data were processed

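The deposited values were 1 table for all 12 arrays, taken as log2 intensities from their range (1.09 to 13.89, array medians 5.33 to 5.53). Per the submitters' processing notes the authors used MAS5; the sources used here give neither its version nor the background correction, log base or normalization. Array number limits the precision. Groups came from sample titles. Of 28826 probe sets, 15209 had 1 gene symbol, 306 several and 13311 none; symbols were updated through Entrez identifiers in RefSeq GRCr8 (15178 found). Only probe sets whose mean over the arrays exceeded the 40th percentile (log2 4.78) were kept, with 1 single-symbol probe set per gene, that of highest mean. Testing used limma 3.58.1 under R 4.3.3 (lmFit, eBayes with intensity trend, all 12 arrays, 8 residual degrees of freedom), with Benjamini-Hochberg adjustment over 10025 genes per comparison and calls at 0.05. The procedure was tested on simulated data. The members and gene lists were chosen with earlier results of these data known. Named beyond the members were, per wider list, the 4 genes of lowest adjusted p in the γ+ group against control and those called against the list's direction; for the other vector groups, the 2 of lowest adjusted p where called; and the 3 genes most correlated with the 2 most changed members. Afdn, Ctnna2, Cxadr, Dlg1, Popdc3, Gja4, Gjb5, Gjd3, Cdh6, Fermt2, Itgb1, Pdlim1, Tbx18, Sox10, Fbln1, Ptprc, Aif1, Cd163 and C1qa were named after their values were seen. Alternatives were other scalings (median centring, quantile, cyclic loess), filters, probe-set averaging, variance priors, array weights, replicate block, the compared groups alone, a minimum change and leaving out arrays.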

Additional observations from a re-analysis of the deposited data

How the results depend on the processing

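With a minimum change of 0.5 log2, 4 of the 7 genes were called lower in the γ+ group against control (Gja1, Gja5, Pkp2 and Dsc2), 3 against the γ- group and 3 against the 23/24 group (Gja1, Gja5 and Pkp2 in both), where 11.6%, 11.1% and 11% of all genes were lower. With array weights 2 genes were called in the γ- group against the 23/24 group, where 25.2% of all genes were. The cause was not tested. In the other settings run, all 7 were called lower in the 3 comparisons of the γ+ group, 0 were called in the other 3 comparisons, and all 7 were called by the F test. Leaving out any 1 of the 12 arrays left these counts at 7 or 0. Rescaling moved the change of Gja1 against control to between -1.21 and -1.16 that of Pkp2 (-0.91) to between -0.82 and -0.77 and that of Cdh2 (-0.40) to between -0.31 and -0.26. Among all calls of the γ+ group against control, higher genes made up 40.4% in the main fit, which used no rescaling. They made up 51.2% with median centring, 48% with quantile and 47.6% with cyclic loess normalization. Same-numbered arrays did not deviate together (correlations of -0.22 to 0.12 over 18 pairs, 1 of them over 0.1), so the number was not taken as a pairing, and with the replicate block 7 of the 7 genes were called in the γ+ group against control. Groups of 3 arrays limit the precision, and no counts of signal over background were at hand.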
